A study of Mus musculus with 2 samples.

Results

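Every B cell makes its immunoglobulin light chain from genes rearranged at the kappa locus or at a lambda locus. The constant region of that chain tells which, but constant region transcripts of both classes can be counted in 1 cell, as given below. The 4 genes described here are the light chain constant genes of the mouse that were counted in these libraries at more than a trace: Igkc, the single kappa constant gene, and Iglc1, Iglc2 and Iglc3, the lambda constant genes, 4 of 31053 genes listed. They were measured in B cells of peripheral blood from 2 groups of male C57BLKs/J mice aged 21 weeks, wild-type (wt) and db/db. Mice of the db/db genotype are obese and diabetic because their leptin receptor gene, Lepr, is defective; nothing was given to either group. Per the labels, 3 mice and 200 µl of retro-orbital blood per group went through red cell lysis and 1 droplet library per group with 3′ end capture, so the mice of a group were pooled and no cell can be traced to a mouse.

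With 1 library per genotype there is no test between genotypes. All intervals on shares, levels and ratios are 95% intervals that cover counting error only (Clopper-Pearson for shares, exact Poisson for levels, exact conditional binomial for ratios). A difference between wt and db/db below is a difference between these libraries. Barcodes counted as B cells had at least 3 summed UMIs (unique molecular identifiers, 1 per captured transcript) of Cd79a, Cd79b and Ms4a1, between 200 and 6000 genes, under 10% mitochondrial and under 20% haemoglobin UMIs. They numbered 2481 of 16700 barcodes in wt and 2588 of 19912 in db/db. A B cell was called lambda where its summed Iglc1, Iglc2 and Iglc3 UMIs exceeded its Igkc UMIs, and kappa where Igkc exceeded them.

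In the mouse, kappa rearrangement usually comes first, and a cell turns to the lambda locus when its kappa rearrangements fail or give a self-reactive receptor, so kappa cells outnumber lambda cells by far. The lambda locus holds only a few variable segments and repeats its joining and constant segments in separate units. Each unit can be transcribed into a distinct chain, and a mature B cell is generally taken to display 1 light chain, a rule called isotypic exclusion. The surrogate light chain (Vpreb1, Igll1) acts before light chain rearrangement and the recombinase (Rag1, Rag2) carries it out, mainly in the bone marrow.

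The ends of the coding parts are shown because the whole comparison rests on telling these transcripts apart near their 3′ ends. Each is the last 150 coding bases with the stop codon, 5′ to 3′, of the GENCODE M21 transcript on GRCm38, the build the deposited files use as mm10. In the lambda sequences capitals mark the 53 positions at which Iglc1, Iglc2 and Iglc3 are not all alike.

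Igkc (chr6:70726608-70726757, plus strand, constant exon): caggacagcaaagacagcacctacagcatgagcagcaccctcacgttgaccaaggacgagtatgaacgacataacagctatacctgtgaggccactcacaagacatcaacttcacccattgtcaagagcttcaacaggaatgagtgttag
Iglc1 (chr16:19061752-19061901, minus strand, constant exon): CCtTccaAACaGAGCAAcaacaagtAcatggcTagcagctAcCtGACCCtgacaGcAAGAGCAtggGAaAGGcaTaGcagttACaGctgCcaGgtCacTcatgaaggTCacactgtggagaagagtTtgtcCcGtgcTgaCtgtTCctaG
Iglc2 (chr16:19198536-19198685, minus strand, constant exon): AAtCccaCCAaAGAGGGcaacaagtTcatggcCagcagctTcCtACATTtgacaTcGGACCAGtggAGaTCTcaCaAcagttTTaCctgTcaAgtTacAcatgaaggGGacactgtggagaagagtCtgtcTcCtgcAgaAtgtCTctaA
Iglc3 (chr16:19065365-19065514, minus strand, constant exon): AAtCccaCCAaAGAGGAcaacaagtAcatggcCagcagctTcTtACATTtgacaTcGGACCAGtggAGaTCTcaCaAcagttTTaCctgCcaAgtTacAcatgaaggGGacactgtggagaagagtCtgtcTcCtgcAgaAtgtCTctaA

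Iglc2 and Iglc3 differed at 4 of these 150 positions and Iglc1 differed from them at 52 and 50. Over the 317 coding bases they share, Iglc2 and Iglc3 were 96.5% identical. Among all 90-base stretches of the transcripts, the closest match between Iglc2 and Iglc3 had 1 mismatch and the median stretch had 3, and no stretch was identical. Between Iglc1 and Iglc2 the closest match had 19 mismatches. The read length was not given in the sources used here, so Iglc2 and Iglc3 UMIs are reported separately but as uncertain between the pair, and their sum is given where levels are compared between the libraries. The reference is strain C57BL/6J and the mice were C57BLKs/J. The annotation also lists an Iglc2 transcript whose first exon, of 154 bases, holds the joining segment Iglj2 and no variable segment.

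Igkc was present in nearly every B cell and Iglc2 and Iglc3 in most. UMIs of Igkc were found in 95.4% of the B cells of wt and 97.9% of those of db/db (interval 94.5 to 96.2 and 97.3 to 98.4). Iglc1 was found in 35.5% and 32.5%, Iglc2 in 80.0% and 83.8%, and Iglc3 in 74.6% and 77.4%. For Iglc4, a further lambda constant gene in the annotation, all barcodes together held 7 UMIs in wt and 9 in db/db.

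The B cell class was checked on a gene the gate did not use. Pax5, the factor that keeps B cell identity, stood at 615 and 476 CPM (UMIs per 1e+06 UMIs of the summed cells) in B cells. In T cells it stood at 6.70 and 2.07 CPM, and in none of the other classes above the 20.5 CPM of wt erythroid cells. Median depth was 2286 UMIs per B cell in wt and 2189.5 in db/db. The libraries also differed in their median share of Gm42418, a locus that overlaps ribosomal RNA, at 2.70% against 0.449%, and of mitochondrial UMIs, at 5.11% against 4.04%. Between the libraries 91 barcodes were shared, among them 3 gated B cells.

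Both calls held transcripts of all 4 genes, and outside B cells the levels were low. The calls were set on these genes, so Igkc in kappa-called and summed lambda in lambda-called cells are high by the grouping. In kappa-called cells Igkc stood at 8913 (wt) and 10335 CPM (db/db), and in T cells at 53.6 and 53.9 CPM. In lambda-called cells Iglc1 stood at 6385 and 4299.8 CPM and in T cells at 3.35 and 3.11 CPM, from 5 and 3 UMIs. Iglc2 stood at 3591 and 2846 CPM in lambda-called cells and at 8.03 and 5.18 CPM in T cells, and Iglc3 at 1623 and 1481 CPM against 9.37 and 3.11 CPM. The sum of the pair stood at 5214 and 4328 CPM in lambda-called cells, against 17.4 and 8.29 CPM in T cells. In monocytes, neutrophils, NK cells, platelets and erythroid cells Igkc lay between 29.5 and 196 CPM, and no lambda gene exceeded the 57.7 CPM of Iglc3 in wt platelets, from 5 UMIs. B cell UMIs made up between 72.4% and 78.0% of the UMIs of each member over all barcodes.

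**Figure D1:**
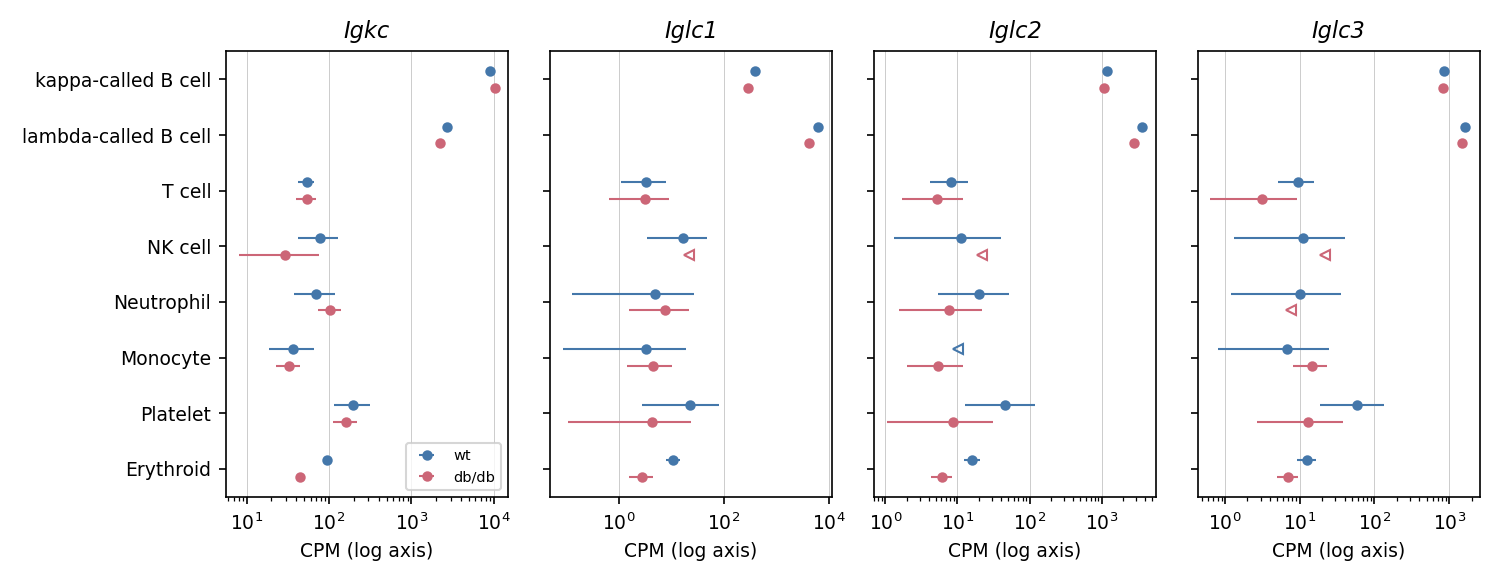
Level of Igkc, Iglc1, Iglc2 and Iglc3 (CPM, log axis) in 8 cell classes of the wt and db/db libraries, with exact Poisson 95% intervals; an open triangle marks the level that 3 UMIs would give where none was counted. By the grouping, Igkc is highest in kappa-called and the lambda genes in lambda-called cells. The kappa-called cells hold Iglc2 and Iglc3 at around 1000 CPM, far to the right of all classes that are not B cells.

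Kappa-called cells held lambda constant transcripts well above the level found in other cells. In wt their summed Iglc2 and Iglc3 level was 2031 CPM, 117-fold that of T cells (79.6 to 179). In db/db it was 1881 CPM, 227-fold (115 to 526). These folds rest on 26 and 8 T cell UMIs. Against erythroid cells the folds were 71.8 (59.6 to 87.3) in wt and 143 (114 to 182) in db/db. Both reference classes were required to hold 0 UMIs of the gate genes. Iglc2 was found in 79.1% of wt and 83.1% of db/db kappa-called cells and Iglc3 in 75.6% and 78.1%. With each cell thinned to 1000 UMIs, Iglc2 was found in 61.1% and 60.6% of kappa-called cells and in 0.937% and 0.334% of T cells; before thinning the T cell shares were 2.80% and 1.62%, at median depths of 3214 and 2739.5 UMIs. Of the kappa-called cells 123 wt and 42 db/db cells had under 1000 UMIs and were left out of the thinned shares. The shares of kappa-called cells with Iglc2, before and after thinning, exceeded those of T cells beyond the counting intervals. The make-up of the light chain constant UMIs was not apart. Lambda genes gave 21.4% (21.1 to 21.8) of them in wt kappa-called cells and 27.9% (19.8 to 37.2) in wt T cells. In db/db the values were 17.3% (17.1 to 17.6) and 17.5% (9.05 to 29.1).

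Iglc1 behaved differently from Iglc2 and Iglc3 in the same cells. The median kappa-called cell held 2 UMIs of Iglc2, 2 of Iglc3 and 0 of Iglc1 in both libraries, beside 19 Igkc UMIs in wt and 21 in db/db. Iglc1 was found in 30.2% and 28.8% of them and stood at 399 and 287 CPM. In kappa-called cells it made up 16.4% (15.8 to 17.1) of the lambda constant UMIs of wt and 13.2% (12.7 to 13.9) of those of db/db, against 55.05% (53.9 to 56.2) and 49.8% (48.2 to 51.5) in lambda-called cells. The calls were set on the same genes, so the contrast of these shares between the calls is a description. Since 3′ end counts do not scale with transcript length, these shares compare numbers of captured transcripts.

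Of the wt B cells 273 were called lambda and 2139 kappa, 56 were tied and 13 had no light chain UMI. The db/db B cells gave 179 lambda, 2379 kappa, 29 tied and 1 without a light chain UMI. Lambda-called cells were therefore 11.3% (10.1 to 12.7) of called cells in wt and 6.998% (6.04 to 8.06) in db/db, or 7.84 and 13.3 kappa-called cells for each lambda-called cell. The db/db share was 0.618 of the wt share (0.509 to 0.749). Cells decided by a single UMI numbered 109 in wt and 40 in db/db. With Vpreb3-positive cells left out, a split chosen after the data were seen, the shares were 8.30% and 7.20% and their ratio 0.867, with an interval of 0.665 to 1.13 that includes 1.

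**Figure D2:**
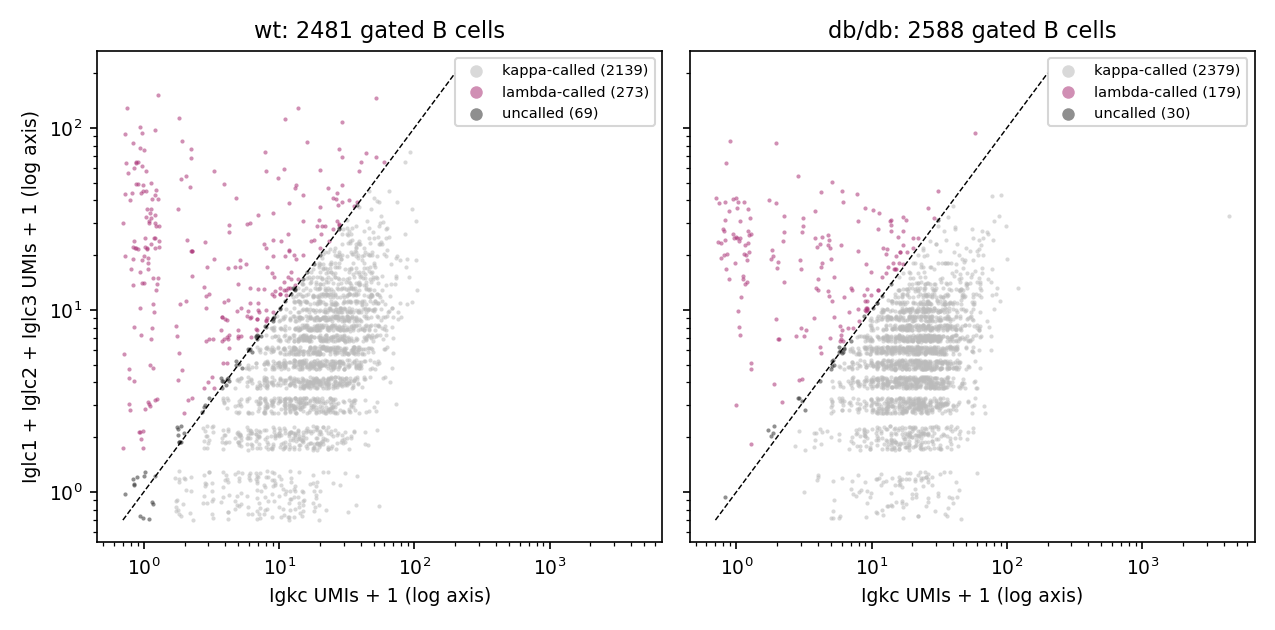
Igkc UMIs against summed Iglc1, Iglc2 and Iglc3 UMIs of every gated B cell, each plus 1 on log axes with a small random shift so that equal counts can be seen, in wt (left) and db/db (right); the dashed line marks equal UMI + 1 counts. Lambda-called cells form a column at 0 Igkc UMIs and a looser set just above the line, and 1 db/db cell stands alone at 4388 Igkc UMIs.

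The share of lambda in a cell's light chain UMIs did not fall into 2 clean groups. Among cells with at least 10 light chain UMIs, 27.7% in wt and 32.1% in db/db had between 10 and 20% lambda, and 15.6% and 20.5% had under 10%. From there the distribution declined to its lowest point, 0.847% of wt cells between 80 and 90% and, in db/db, 0.368% between 70 and 80%. A separate peak stood at 90 to 100%, with 99 cells of 2124 in wt and 66 of 2445 in db/db. Counting only this peak as lambda, a rule chosen after the data were seen, gave 4.66% (3.80 to 5.65) for wt and 2.70% (2.09 to 3.42) for db/db, with a ratio of 0.579 (0.418 to 0.799). The lambda share thus rests on where the line between the classes is drawn, while the ratio between the libraries was alike under both rules.

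**Figure D3:**
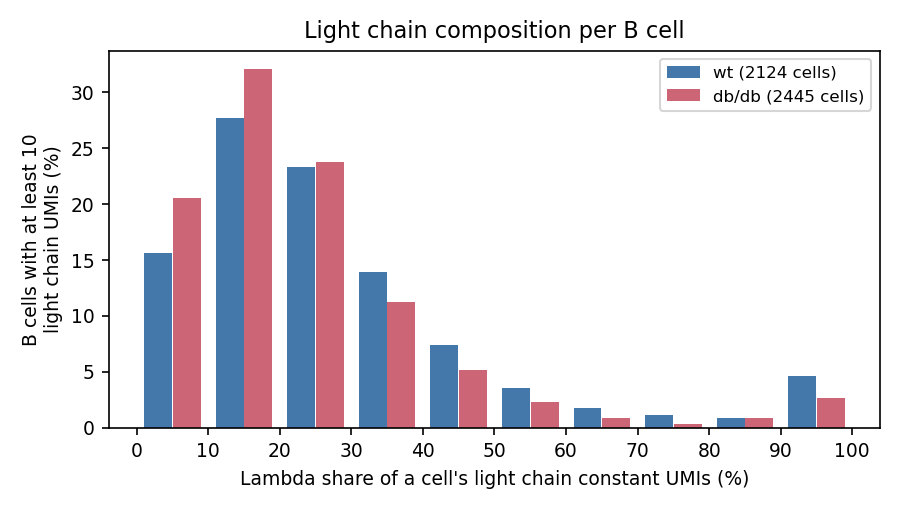
Distribution of the lambda share of light chain constant UMIs over B cells with at least 10 such UMIs, in bins of 10 percentage points, as a percentage of those cells in each library. Most cells lie below 50%, and a separate peak at 90 to 100% holds 4.66% of wt and 2.70% of db/db cells.

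By its definition the peak holds little Igkc, and its medians are given as a description. The median wt cell in it held 0 Igkc, 18 Iglc1, 7 Iglc2 and 1 Iglc3 UMIs, and the median db/db cell 0 Igkc, 13 Iglc1, 4.5 Iglc2 and 1 Iglc3 UMIs. Lambda-called cells with at least 10 light chain UMIs outside the peak numbered 125 and 93, and their medians were 9 and 8 Igkc UMIs beside 5 and 4 Iglc1 UMIs. Their median depth was 2459 UMIs in wt and 2218 in db/db, against 2256 and 2130.5 in the peak. Over all lambda-called cells the median depth was 2167 and 2075 UMIs, against 2331 and 2205 in kappa-called cells.

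The lambda share depended on how many light chain UMIs a cell held. In wt it was 21.9% among cells with 1 to 4 such UMIs, 7.82% with 20 to 39 and 16.1% with 40 or more (13.1 to 19.5). In db/db it was 24.0%, 5.69% and 7.07% (4.79 to 10.0) in the same ranges. The share of db/db lay below that of wt in the ranges from 10 UMIs up, and the intervals of the 2 libraries were apart at 40 or more.

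Taken gene by gene, Iglc1 most often led in lambda-called cells. In wt Iglc1 had the most UMIs of the 3 genes in 129 of 273 cells (47.3%, 41.2 to 53.4), and in db/db in 88 of 179 (49.2%, 41.6 to 56.7). Iglc2 led in 34.1% and 31.8%, and Iglc3 in 10.3% (6.92 to 14.5) and 16.2% (11.1 to 22.4), with the remaining cells tied. A cell led by Iglc1 held a median of 18 Iglc1, 3 Iglc2 and 1 Iglc3 UMIs in wt. A cell led by Iglc2 held 2, 10 and 2; the leading gene is high by the grouping. Against the sum of Iglc2 and Iglc3, Iglc1 was ahead in 121 of 273 cells in wt (44.3%, 38.3 to 50.4) and in 80 of 179 in db/db (44.7%, 37.3 to 52.3), so its lead holds over each of the pair alone and not over their sum. Counting intervals of the libraries overlapped for each leading gene.

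Among transcripts of variable segments, which the call did not use, summed Igkv and Iglv1 followed the calls. Iglv3 did not differ beyond its intervals. Iglv2 had 2 (wt) and 1 (db/db) UMIs in lambda-called cells and 0 and 1 in kappa-called cells. Libraries of 3′ ends hold few such transcripts: the 160 Igkv genes listed gave 435 UMIs in wt and 417 in db/db kappa-called cells. Their summed level was 83.0 CPM in wt kappa-called cells (75.4 to 91.2) and 29.7 in lambda-called cells (17.9 to 46.4), and 73.3 (66.4 to 80.6) and 41.7 CPM (24.7 to 65.8) in db/db. Iglv1, a lambda variable segment, stood at 68.8 CPM in wt lambda-called cells (49.98 to 92.3) and 4.77 in kappa-called cells (3.09 to 7.04). In db/db the Iglv1 levels were 37.0 (21.2 to 60.1) and 2.99 CPM (1.74 to 4.78). In T cells no Iglv1 UMI was counted, which allows up to 2.01 CPM in wt and 3.11 in db/db.

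Within wt lambda-called cells Iglv1 stood at 119 CPM where Iglc1 led (83.3 to 165) and at 13.0 CPM where Iglc2 led (2.69 to 38.1), from 36 and 3 UMIs. In db/db the same levels were 41.8 (19.1 to 79.3) and 15.97 CPM (1.93 to 57.7), whose intervals overlap, from 9 and 2 UMIs. Where Iglc3 led, Iglv1 stood at 62.4 CPM (17.0 to 160) in the wt library and at 62.2 (20.2 to 145) in db/db, from 4 and 5 UMIs, and these intervals overlap those of both other groups. In lambda-called cells Iglv3 was counted at 14.1 (wt) and 9.26 CPM (db/db), and in kappa-called cells at 5.91 and 5.45 CPM, and the intervals of the calls overlapped in both libraries.

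B cells were sorted into states by rules that used no light chain gene. Cells with a Vpreb3 UMI, the transcript of a protein that binds newly made light chains in the endoplasmic reticulum, came first. Of the rest, cells with at least 2 UMIs of a list of 12 B1 and memory genes came next, then cells with a UMI of Fcer2a (CD23), a receptor of follicular B cells, and last those with none of these. A single Vpreb3 UMI decided 479 of 927 wt and 642 of 1042 db/db Vpreb3-positive cells. Cd93, a surface marker of transitional B cells, stood at 33.7 CPM in Vpreb3-positive wt cells and at 3.78 to 17.5 CPM in the other states. In db/db it stood at 10.2 CPM against 2.59 to 6.55 CPM. Vpreb3-positive cells were not alike in the libraries. The summed B1 and memory list stood there at 291 (wt) and 587 CPM (db/db), with 1 and 0 of its 12 genes at 0, and Spib at 322 and 149 CPM. Within the list Apoe (115 and 291 CPM) and S100a6 (33.7 and 131 CPM) differed most in CPM. Bhlhe41 (17.6 and 5.09 CPM), Cd5 (4.93 and 1.56 CPM) and Tbx21 (1.23 and 0.782 CPM) went the other way. The part of these differences in the lambda shares below was not tested.

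The lambda share differed most between the libraries in the Vpreb3-positive cells. There 148 of 906 called wt cells (16.3%, 14.0 to 18.9) and 69 of 1030 called db/db cells (6.70%, 5.25 to 8.40) were lambda, a ratio of 0.410 (0.304 to 0.549). In Fcer2a-positive cells the shares were 8.40% (6.46 to 10.7) and 4.77% (2.94 to 7.28), a ratio of 0.568 (0.324 to 0.957). In cells with none of these the shares were 9.15% and 6.95%, with a ratio of 0.759 (0.476 to 1.21) whose interval includes 1. In the B1 and memory list cells the order was the opposite, with 7.08% (4.68 to 10.2) and 9.31% (7.01 to 12.1), and the ratio of 1.31 had an interval of 0.804 to 2.20. Higher state cuts kept that order, at 6.49% (3.82 to 10.2) in wt and 10.3% (7.69 to 13.5) in db/db. The 90% rule for lambda and Iglc1 alone against Igkc kept it too. That order turned when each cell was thinned to 1000 UMIs before its state and call were set, to 10.7% (6.55 to 16.2) in wt and 10.3% (7.12 to 14.2) in db/db. Thinning also brought the Fcer2a-positive shares to 10.2% and 8.93%, with overlapping intervals. For cells with none of these, higher cuts gave 10.8% (9.07 to 12.7) in wt and 5.92% (4.75 to 7.26) in db/db. Thinning gave them 12.7% (10.6 to 15.0) and 7.31% (5.90 to 8.94), so the intervals were apart in both settings. Higher cuts let cells with a single Vpreb3 UMI into this group. Whether the ratios differ between states was not tested.

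Within wt the lambda share was higher in cells with more Vpreb3 UMIs. It was 8.30% in cells with 0 Vpreb3 UMIs (6.96 to 9.81), 12.7% with 1, 15.9% with 2 and 23.0% with 3 or more (18.1 to 28.6). In db/db it was 7.20% (5.95 to 8.61), 6.13%, 6.20% and 10.3% (5.74 to 16.7), and the intervals overlapped. Vpreb3-positive wt cells held lambda 1.94 times as often as Fcer2a-positive wt cells (1.43 to 2.68), and in db/db the value was 1.40 (0.843 to 2.44).

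**Figure D4:**
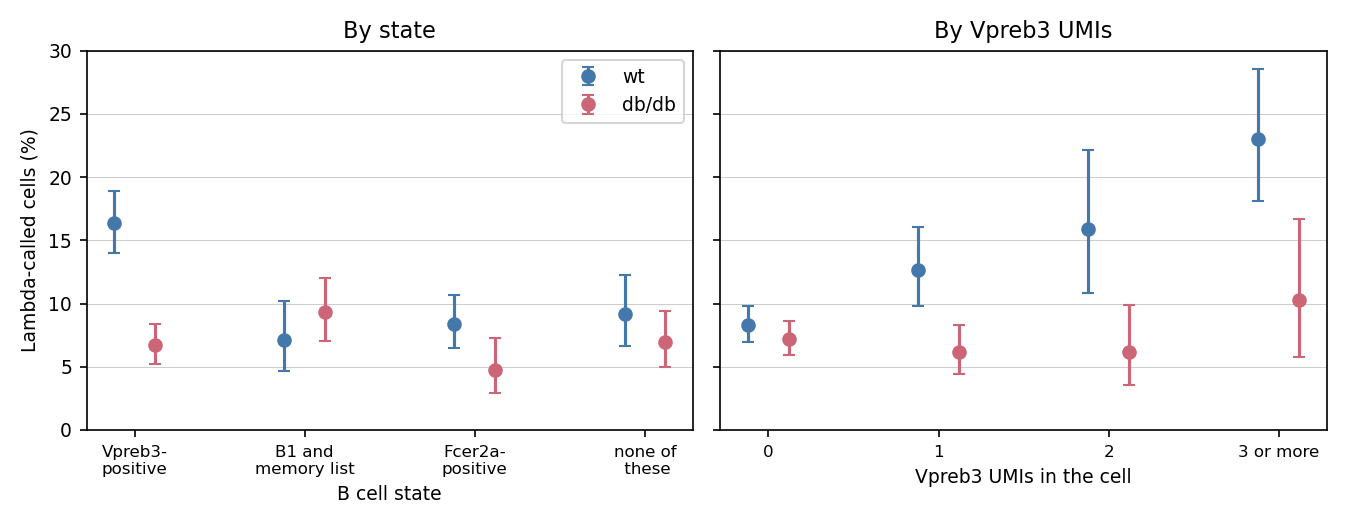
Lambda-called cells as a percentage of called B cells with Clopper-Pearson 95% intervals, by B cell state (left) and by Vpreb3 UMIs in the cell (right), in wt and db/db. The wt share goes from 8.30% at 0 to 23.0% at 3 or more Vpreb3 UMIs, while the db/db shares stay between 6.13% and 10.3%.

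The heavy chain gave few cells to compare. Cells in which Ighm and Ighd led held the bulk of the calls, with lambda shares of 11.3% in wt and 7.16% in db/db. Cells led by a switched heavy chain gave 2 lambda-called of 15 in wt and 3 of 89 in db/db, and the intervals of these shares (1.66 to 40.5 and 0.701 to 9.54) overlap. Platelet transcripts also differed between the libraries: 3.97% of wt and 15.6% of db/db kappa-called cells held at least 2 UMIs of a platelet list, and 2.93% and 12.3% of lambda-called cells. Among cells with none the lambda shares were 11.4% and 7.45%, a ratio of 0.652 (0.524 to 0.808).

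Iglc1 in kappa-called cells also went with Vpreb3 in wt. Its level there was 703 CPM in Vpreb3-positive cells (667 to 740) and 206, 218 and 189 CPM in the B1 and memory list, Fcer2a-positive and remaining cells. In db/db the Vpreb3-positive cells stood at 332 CPM (309 to 356) and the others at 289, 268 and 204 CPM. Cells with at least 3 UMIs of both Igkc and Iglc1 were 24.6% of Vpreb3-positive wt cells (21.8 to 27.6) and 6.04% of the other wt cells (4.89 to 7.37). In db/db they were 10.5% (8.68 to 12.5) and 7.53% (6.25 to 8.96).

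Such cells were deeper than the rest. The median Vpreb3-positive wt cell with both Igkc and Iglc1 had 2799 UMIs against 2406 in the others, and 1282 genes against 1081. The part that droplets with more than 1 cell have in these shares was not tested. Counting all lambda genes, with at least 3 UMIs of each class and the minor class at 20% or more, both chains were seen in 44.7% of called wt cells (42.7 to 46.7) and 41.9% of called db/db cells (40.03 to 43.9).

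Per UMI, db/db B cells held more Igkc and less of each lambda gene than wt B cells. Igkc stood at 8137 (wt) and 9708 CPM (db/db), a ratio of 1.19 (1.18 to 1.21). Iglc1 stood at 1045 and 574 CPM, a ratio of 0.549 (0.527 to 0.572). Iglc2 stood at 1441 and 1187 CPM, a ratio of 0.824 (0.798 to 0.850), and Iglc3 at 939 and 868 CPM, a ratio of 0.924 (0.890 to 0.960); the sum of the pair had a ratio of 0.863 (0.843 to 0.884). Iglc1 was the 1 member of 4 past 1.5-fold; of the 10491 genes whose UMIs summed to at least 20 over the libraries, 6.97% were lower and 6.42% higher in db/db by that fold. The median gene differed by −0.02 on the log2 scale of CPM plus 10.

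Within the calls the light chain ratios are a description, because the calls were set on the same genes. In a lambda-called cell Igkc lies below the summed lambda UMIs by definition, and in a kappa-called cell the reverse holds. Summed lambda in lambda-called cells was itself lower in db/db, at 0.744 of wt (0.715 to 0.774). The opposite directions of Igkc in the calls therefore cannot be told apart from the effect of the call rule. In kappa-called cells alone the Igkc ratio was 1.16 (1.15 to 1.17), and in lambda-called cells it was 0.826 (0.762 to 0.894), with levels of 2683 (wt) and 2215 CPM (db/db). In kappa-called cells Iglc1 stood at 0.720 of wt (0.675 to 0.769) and the sum of Iglc2 and Iglc3 at 0.926 (0.902 to 0.951). In lambda-called cells Iglc1 stood at 0.673 of wt (0.637 to 0.712), Iglc2 at 0.793 (0.739 to 0.850) and Iglc3 at 0.913, with an interval of 0.826 to 1.01, and the sum of the pair at 0.830 (0.784 to 0.879). No member was past 1.5-fold within either call, against 12.8% of genes in kappa-called cells (6.22% higher and 6.58% lower in db/db) and 26.0% in lambda-called cells (8.34% higher and 17.6% lower). A single db/db cell held 4388 of the 59959 Igkc UMIs of db/db B cells. Without cells with at least 3 Jchain UMIs, of which it was the only 1 gated, the Igkc ratio over all B cells was 1.11. This cell was called kappa and is part of the kappa-called ratio of 1.16, which was not recomputed without it.

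The other genes of the pathway, listed with earlier results of these data known, were set against the same background. Of 34 listed genes 28 were measured, 0 were past 1.5-fold higher and 3 lower in db/db B cells, against 6.42% and 6.97% of all genes, and their median log2 ratio was −0.24. In lambda-called cells 11 of the 28 were lower and 0 higher, against 17.6% and 8.34% of all genes, with a median of −0.45 against −0.09 over all genes. Among receptor and coreceptor genes, Ighm stood at 3949.9 (wt) and 2839.5 CPM (db/db), a ratio of 0.719 (0.705 to 0.733). Cd22, an inhibitory coreceptor, had a ratio of 0.662 (0.617 to 0.710), from 321 to 213 CPM. Among factors that act at the light chain loci, Spib, an Ets factor, had a ratio of 0.587 (0.537 to 0.642), with 0.343 (0.2503 to 0.463) in lambda-called and 0.638 (0.580 to 0.701) in kappa-called cells, and Ikzf3 (Aiolos) 0.612 (0.566 to 0.660). Over all B cells none of the 7 signalling genes was past 1.5-fold, and their median log2 ratio was −0.18. Btk, the kinase that relays the receptor signal, had a ratio of 0.995 (0.898 to 1.10) and Syk 0.839 (0.797 to 0.882). In lambda-called cells 3 of the 7 signalling genes were lower by that fold and 0 higher.

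The surrogate light chain and recombination genes were close to absent from blood B cells. Igll1, Vpreb2 and Dntt had no UMI in B cells of either library. For Vpreb1, wt gave 3 UMIs and db/db 1, for Rag1 9 and 0, and for Rag2 2 and 0. For Rag1 the ratio of db/db to wt was at most 0.492 by its interval. The 9 Rag1 UMIs of wt comprised 4 in kappa-called and 5 in lambda-called cells.

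Lambda-called and kappa-called cells were then compared across all other genes. Raw UMIs were summed for each call and library and tested with edgeR's quasi-likelihood test with the library as a block, which fits 1 difference common to both libraries and does not require the same sign in each; the 4 sums share 2 libraries and 1 residual degree of freedom. Of 9571 genes tested 25 (0.261%) passed an adjusted p of 0.05, 21 higher (0.219% of genes) and 4 lower (0.0418%) in lambda-called cells, and 679 had an unadjusted p under 0.05. The count hung on the model: without the block edgeR called 0 genes (332 at an unadjusted p under 0.05) and DESeq2 called 1, Iglv1 (63). Both libraries had the same sign for 20 of the 25, of which 17 were higher and 3 lower.

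Iglv1 rose by 3.70 on the log2 scale (SE 0.386, edgeR adjusted p = 6.73e-08), with 44 UMIs in wt and 16 in db/db lambda-called cells. Fam129c stood at 62.0 CPM in kappa-called and 142 CPM in lambda-called wt cells, and at 22.1 and 55.5 CPM in db/db (log2 1.18, edgeR adjusted p = 0.000126). Sox4, a transcription factor of early lymphocytes, stood at 22.9 and 57.8 CPM (wt) and 9.13 and 32.4 CPM (db/db) (log2 1.43, edgeR adjusted p = 0.00653). Nedd4, a ubiquitin ligase, stood at 31.1 and 100.1 CPM (wt) and 10.2 and 20.8 CPM (db/db), and Cplx2, a complexin that binds SNARE complexes, at 11.1 and 42.2 and at 2.99 and 30.1 CPM.

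The naming rule took 5 more genes that were higher in lambda-called cells. Atp1b1, a subunit of the sodium pump, stood at 27.8 and 87.5 CPM in wt but at 25.1 and 25.5 CPM in db/db. Mgst1, a glutathione transferase, and Abtb1 rose by 1.79 and 1.11 on the log2 scale. Cenph, a kinetochore gene, was called on 4 and 5 UMIs in wt and 3 and 5 in db/db, for kappa-called and lambda-called cells in turn. Tyrobp, an adaptor of myeloid and NK cells, stood at 57.2 and 57.8 CPM (wt) and 60.6 and 215 CPM (db/db), where 2 of the 179 lambda-called cells held 30 and 19 of its 93 UMIs.

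The 3 genes lower in lambda-called cells with the same sign in both libraries were Cr2, Cd69 and Gm30211. Cr2, the complement receptor CD21, stood at 180 and 109 CPM (wt) and 137 and 85.6 CPM (db/db), for kappa-called and lambda-called cells in turn (log2 −0.75, SE 0.148, edgeR adjusted p = 0.00825). Cd69, an early activation marker, stood at 272 and 188 CPM (wt) and 336 and 243 CPM (db/db) (log2 −0.54, edgeR adjusted p = 0.0259). Gm30211, a gene of unstated function, fell by 0.71 on the log2 scale (edgeR adjusted p = 0.0442).

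A further 7 genes passed with the same sign outside the naming rule and were picked out after their values were seen: Pafah1b3, Marcks, Lynx1, Vpreb3, Rgs2, Akap12 and Heatr6. Vpreb3 stood at 328 and 694 CPM in wt kappa-called and lambda-called cells and at 265 and 287 CPM in db/db (log2 0.64, edgeR adjusted p = 0.0104). Marcks, a substrate of protein kinase C, stood at 55.7 and 128 CPM (wt) and 32.5 and 53.2 CPM (db/db). The lambda-called cells of wt thus stood above kappa-called cells in Vpreb3 by 1.06 on the log2 scale of CPM plus 10 and those of db/db by 0.11.

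**Figure D5:**
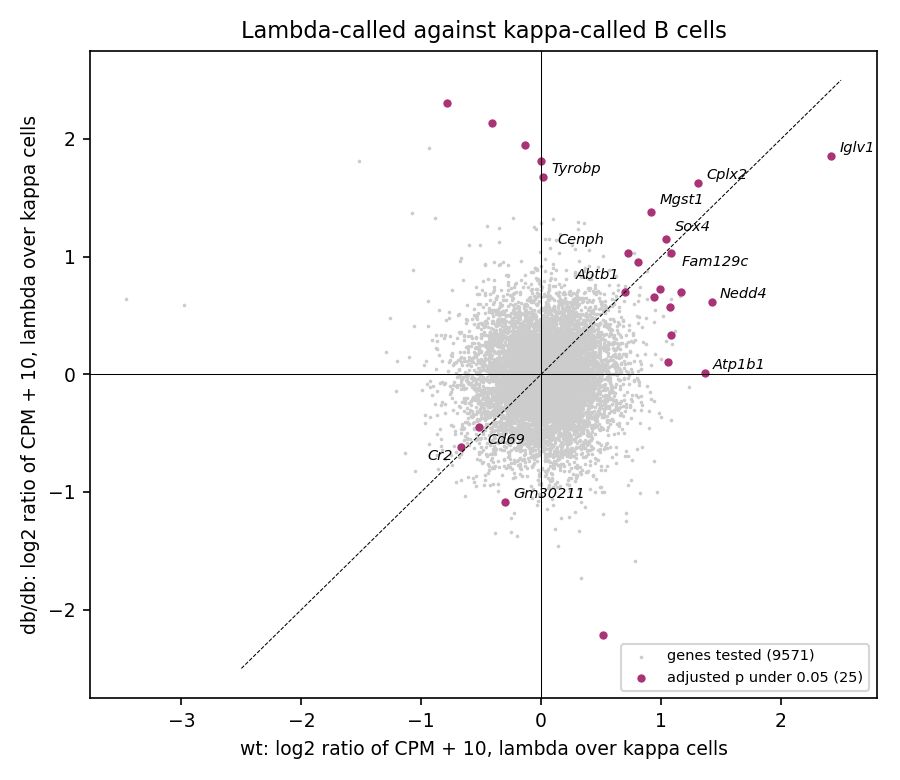
Log2 ratio of lambda-called over kappa-called B cells (CPM plus 10) in wt (x axis) and db/db (y axis) for the 9571 genes tested; the 25 with an edgeR adjusted p under 0.05 are coloured and the 13 taken by the naming rule are labelled. Among the coloured genes Iglv1 is highest in wt, and in db/db it lies below Lyz2, Ccl6 and Fn1; Cr2 and Cd69 lie near the dashed line of equal ratios below 0, and 5 coloured genes lie on or across the axes with opposite or absent ratios in wt.

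Of the 34 pathway genes 28 were tested in this comparison, 0 were higher and 1, Cr2, was lower in lambda-called cells, against 0.219% and 0.0418% of all genes, with a median log2 fold change of 0.09 against −0.01 over all genes. Ighm, the heavy chain constant gene, stood at 3798 and 5243 CPM (wt) and 2803 and 3404 CPM (db/db) without passing (log2 0.33, edgeR adjusted p = 0.288). Cd72, an inhibitory coreceptor, came nearest to the threshold among the rest (log2 0.53, edgeR adjusted p = 0.0743), followed by Spib (log2 0.48, edgeR adjusted p = 0.151).

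The only gated B cell with at least 3 Jchain UMIs, the joining chain of secreted IgA and IgM, was a db/db cell with 10058 UMIs. It held 4388 Igkc UMIs beside 13 Iglc1, 3 Iglc2 and 16 Iglc3 UMIs, so light chains took 43.9% of its UMIs. It also held 348 Jchain and 880 Igha UMIs and was called kappa. No wt barcode, gated or not, had 3 Jchain UMIs.

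Across 14 sums of 7 cell classes in 2 libraries, the gene most like Igkc in log2 level of CPM plus 10 was Vpreb3 (Pearson r = 0.986), the gene most like Iglc1 was Fcmr, a receptor for IgM (0.987), that most like Iglc2 was Gm31243 (0.990) and that most like Iglc3 was Iglc2 (0.982). The next for Igkc were Iglc2, Iglc1, Cxcr5 and Ffar1, and Vpreb3 was also among the closest 5 for Iglc1 and Iglc3. These correlations are a description over classes that share 2 libraries, and they mostly set B cells against the rest.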

How the data were processed

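The deposited matrices hold raw counts, as UMIs per gene and barcode; the submitters' processing notes name Cell Ranger 3.0.2 and mm10. Annotation and read length: not given in the sources used here. The 4 members and all gene lists were chosen with earlier results of these data known.

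Matrices were read in Python 3.11.15 (numpy 2.4.6, scipy 1.17.1, pandas 2.3.3). Classes other than B cells had 0 UMIs of the gate genes and at least 3 UMIs of 1 marker list (T cell, NK cell, neutrophil, monocyte, platelet), taking the highest; erythroid cells had at least 50% haemoglobin UMIs. No doublet caller was run. Library totals were 50540198 and 70039773 UMIs, and B cells held 6002417 and 6176326. For a count of 0 the limit is 3 counts. The only test was edgeR 4.0.16 (R 4.3.3) on lambda-called and kappa-called sums, with filterByExpr, TMM factors and Benjamini-Hochberg adjustment over all genes tested, the 4 members left out. The script was first tested on simulated data. Named genes were the 10 highest and 10 lowest fold changes among those called with the same sign in both libraries; only 3 fell. The alternatives changed the gate, filters, calls, state cuts, scaling and model.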

Additional observations from a re-analysis of the deposited data

Results flagged for a closer look

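Lyz2, the lysozyme gene of myeloid cells, had opposite differences between the calls in the 2 libraries. Its level in lambda-called over kappa-called B cells was 0.521 (0.326 to 0.794) in wt and 5.15 (4.58 to 5.79) in db/db, and the difference between the libraries was not tested. In db/db 2 of the 179 lambda-called cells held 275 and 111 of the 400 Lyz2 UMIs.

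Outside the B cell gate, 2 db/db barcodes held Jchain and light chain transcripts, where no wt barcode had 3 Jchain UMIs. The first held 49 Jchain UMIs and 391 light chain constant UMIs among 962 UMIs, 387 of them Iglc3, with 200 Ighm UMIs and 0 UMIs of the gate genes. The second held 28 Jchain and 155 light chain constant UMIs among 4852 UMIs, 153 of them Igkc, with 121 Igha UMIs. It had 5 UMIs of the gate genes, 489 genes and 2.80% mitochondrial UMIs, so only the haemoglobin limit kept it out of the gate.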

How the results depend on the processing

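In all 19 alternatives the db/db lambda share stayed below that of wt, and leaving out Vpreb3-positive cells was the only 1 whose ratio interval included 1 (8.30% in wt, ratio 0.867). The shares themselves moved with the call. Requiring 90% in 1 class gave 21.0% and 11.6% in wt and db/db, counting ties as lambda 13.3% in wt, and thinning to 1000 UMIs 13.6% and 8.61%. Lambda at 90% of at least 10 UMIs gave 4.66% and 2.70%, and Iglc1 alone against Igkc 6.08% and 3.81%. Cells with both chains were 72.2% and 74.7% with 2 UMIs and 10% required, and 36.6% and 33.8% with 5 UMIs and 20%.

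By state, higher cuts gave 20.2% for Vpreb3-positive wt cells, and 6.49% (wt) and 10.3% (db/db) for B1 and memory list cells. Thinning before states and calls were set gave, in wt and db/db, 19.96% and 10.3% (Vpreb3-positive), 10.7% and 10.3% (B1 and memory list, where the order turned), 10.2% and 8.93% (Fcer2a-positive) and 12.7% and 7.31% (none). Lambda at 90% of at least 10 UMIs gave, in wt and db/db, 6.90% and 2.40% (Vpreb3-positive), 1.51% and 3.59% (B1 and memory list), 3.61% and 1.99% (Fcer2a-positive) and 3.96% and 2.91% (none). Iglc1 alone gave 8.94% and 3.57%, 2.19% and 4.38%, 4.78% for wt Fcer2a-positive cells, and 5.49% and 4.25%.

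The Igkc ratio was 1.16 over UMIs without haemoglobin, mitochondrial genes and Gm42418, 1.16 with equal cell weights, 1.22 with TMM factors, 1.16 in cells of its own call, 1.11 without cells with 3 Jchain UMIs, 1.18 with a gate of 5 UMIs, 1.25 without cells of other lineages and 1.22 with Ctss not counted there. The summed lambda ratio was 0.743, 0.809, 0.786 and 0.744 under the first 4 of these, 0.751 with the gate of 5 and 0.751 without other lineages. All kept their direction.

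The count of 25 genes became 1 with DESeq2, 52 without a filter, 0 without the library as a block, 39 with at least 10 UMIs and 90% in 1 class, and 49 without cells of other lineages, Ctss not counted. Of the 20 genes with the same sign in both libraries, 17 remained called in the last, 19 without a filter, 13 with at least 10 UMIs and 90% in 1 class, 10 with lambda at 90% of at least 10 UMIs, 1 with DESeq2 and 0 without the block. Tyrobp turned to −0.26 and −0.37 on the log2 scale where lambda needed 90%; the cause was not tested. Leaving out a library left no residual degrees of freedom, so it gave no test. For the comparison of genotypes no paired analysis was possible because the 2 libraries are 1 per genotype and share only the number 1. Alternatives using the 90% rule for lambda over all cells, Iglc1 alone, Vpreb3-positive cells left out and Ctss not counted were chosen after seeing the data. The number of lambda-called cells, 179 in db/db, limits what could be detected.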

Other observations

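Of the 25 genes called between lambda-called and kappa-called cells, 5 did not have the same sign in both libraries, and their UMIs sat in few cells. Igha stood at 5.72 and 12.5 CPM in wt kappa-called and lambda-called cells and at 187 and 32.4 CPM in db/db, where 1 kappa-called cell held 880 of 1066 UMIs. Chil3, a chitinase-like protein of myeloid cells, had no UMI in wt B cells, and 1 db/db lambda-called cell held 25 of 33. Fn1 and Ccl6, also myeloid genes, had 27 and 35 UMIs in db/db lambda-called cells, of which single cells held 26 and 19. Of the db/db lambda-called cells 5 of 179 (2.79%) held at least 2 UMIs of the monocyte list, Ctss aside, against 20 of 2379 (0.841%) kappa-called cells.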
